A study of Mus musculus with 20 samples.

Results

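Glucuronosyl and sulfo conjugating enzymes were followed in liver RNA from 20 male ob/ob mice, a strain made obese by loss of leptin. The enzymes were chosen by name: every gene of the probe annotation with a symbol that starts with Ugt1, Ugt2 or Ugt3 followed by a or b, or with Sult and a digit. This gave 31 genes of 19505, of which 10 were Ugt genes and 21 were Sult genes, and each was read by 1 probe set. The mice lay in 4 groups of 5: fine particles (PM2.5) with metformin in the drinking water, called the combined group here, PM2.5, metformin, and filtered air. PM2.5 was breathed in a chamber for 6 hours a day, and all mice were killed after 2 weeks. All 20 mice carried the ob/ob genotype, so no lean or leptin-sufficient liver was part of the comparison. What air the metformin mice breathed is not given by their label, and they are read here as mice without PM2.5. Mouse numbers follow the deposited order inside a group and tie no mice together across groups. No batch, litter or cage is labelled, and p-values therefore cover only the spread between these mice.

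Conjugation makes fat-soluble compounds easier to excrete. UDP-glucuronosyltransferases, the Ugt enzymes, sit in the endoplasmic reticulum and join a sugar acid from UDP-glucuronic acid to bilirubin, steroids, bile acids, fatty acids and drugs. Cytosolic sulfotransferases, the Sult enzymes, join sulfate from the donor PAPS to phenols, estrogens, dehydroepiandrosterone and bile acids. Both families are made in hepatocytes, and in mouse liver several Sult genes, Sult2a1, Sult2a2 and Sult3a1 among them, are known to be expressed more in females than in males.

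The windows below show the RefSeq start regions (build GRCm38.p6, 250 bases before to 50 bases after the start) of the genes on which the results turn. Ugt2b1 and Ugt3a1 fell most clearly. Ugt2b37 and Ugt2b38 have closely alike windows and both fell. Sult2a3 and Sult2a5 also have alike windows, and each varied with Sult2a1 from mouse to mouse. Only these windows were compared, not the transcripts. Capitals mark GTTAAT, the core of the HNF1 motif, or AGGTCA, the unit bound by many nuclear receptors, on either strand, and in Ugt3a1 the full HNF1 motif, GTTAAT followed after any 2 bases by TTAAC.
Ugt2b1, chr5:86926454-86926753, minus strand: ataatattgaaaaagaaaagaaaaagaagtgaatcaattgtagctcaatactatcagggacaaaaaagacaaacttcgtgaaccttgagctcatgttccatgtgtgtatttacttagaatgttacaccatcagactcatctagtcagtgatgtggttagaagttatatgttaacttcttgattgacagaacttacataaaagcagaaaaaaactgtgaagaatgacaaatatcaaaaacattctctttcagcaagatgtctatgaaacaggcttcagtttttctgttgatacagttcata
Ugt2b37, chr5:87254739-87255038, minus strand: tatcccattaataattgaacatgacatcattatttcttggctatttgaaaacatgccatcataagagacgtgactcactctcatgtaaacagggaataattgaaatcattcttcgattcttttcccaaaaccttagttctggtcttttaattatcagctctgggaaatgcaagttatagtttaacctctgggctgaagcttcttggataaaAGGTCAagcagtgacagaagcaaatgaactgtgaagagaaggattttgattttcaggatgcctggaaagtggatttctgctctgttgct
Ugt2b38, chr5:87424154-87424453, minus strand: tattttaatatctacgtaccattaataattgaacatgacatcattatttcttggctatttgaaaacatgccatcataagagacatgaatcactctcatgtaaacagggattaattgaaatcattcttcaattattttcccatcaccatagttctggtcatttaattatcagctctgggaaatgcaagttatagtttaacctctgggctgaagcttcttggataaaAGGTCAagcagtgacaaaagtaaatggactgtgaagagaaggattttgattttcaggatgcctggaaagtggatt
Ugt3a1, chr15:9279579-9279878, plus strand: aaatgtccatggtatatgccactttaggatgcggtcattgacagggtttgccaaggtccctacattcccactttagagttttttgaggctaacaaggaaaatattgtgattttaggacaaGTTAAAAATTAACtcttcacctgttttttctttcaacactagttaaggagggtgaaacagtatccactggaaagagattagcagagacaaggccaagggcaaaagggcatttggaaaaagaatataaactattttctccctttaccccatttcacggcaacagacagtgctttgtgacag
Sult2a3, chr7:14122999-14123298, minus strand: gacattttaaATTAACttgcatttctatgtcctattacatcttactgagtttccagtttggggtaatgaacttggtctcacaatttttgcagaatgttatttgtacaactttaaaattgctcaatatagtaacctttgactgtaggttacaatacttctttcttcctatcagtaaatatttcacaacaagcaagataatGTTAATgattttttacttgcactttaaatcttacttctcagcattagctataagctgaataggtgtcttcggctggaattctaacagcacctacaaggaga
Sult2a5, chr7:13623717-13624016, plus strand: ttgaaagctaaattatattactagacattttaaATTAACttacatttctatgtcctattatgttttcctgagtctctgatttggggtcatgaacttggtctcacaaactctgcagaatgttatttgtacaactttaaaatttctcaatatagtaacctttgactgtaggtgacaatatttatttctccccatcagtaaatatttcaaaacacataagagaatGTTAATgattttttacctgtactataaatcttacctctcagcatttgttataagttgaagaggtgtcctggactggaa

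Of the 31 genes, 26 had such a window, 29 windows in all. The windows of Ugt2b37 and Ugt2b38 were identical at 86.9% of aligned positions and those of Sult2a3 and Sult2a5 at 74.9%, against a median of 46.6% over the 403 pairs of windows of different genes. Close windows did not always go with like results. The Ugt2b5 window was identical to that of Ugt2b38 at 84.2% and to that of Ugt2b37 at 76.2%. Ugt2b5 itself did not pass in the combined group against filtered air (-0.31, adjusted p = 0.115, limma). The Sult2a6 window matched that of Sult2a3 at 70.7%, and Sult2a6 was too dim to be tested. GTTAAT or its complement stood in 9 of the 29 windows, or 31%, and in 7.1% of all 32851 windows of the table. The full motif was found in 1 of the 29, that of Ugt3a1, and in 13 windows of the whole table (0.0396%). AGGTCA was present in 27.6% of the windows of these genes, against 16.3% of all windows, and the Ugt2b36, Ugt2b37, Ugt2b38 and Ugt2b5 windows held it at bases 226, 212, 226 and 229 of the window, just before the start. AGTTCA, a unit bound by the pregnane X receptor, stood in 34.5% of the windows against 14% of all, TGTTTAC, a forkhead motif, in 13.8% against 3.65%, and GCGTG, the core of the aryl hydrocarbon receptor motif, in 13.8% against 32.4%. Neither TGACNNNGC, the core of the NRF2 motif, nor CACGTG, an E box, was found in the 29 windows, while 12.4% and 7.15% of all windows held them. The motifs were searched on both strands, AGGTCA and AGTTCA can share bases with neighbouring motifs, and windows of duplicated genes are not independent of each other. The windows compared were not matched for base composition, which alone can raise or lower such shares. No excess or lack of a motif is therefore read from them.

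Each array gave a log2 signal per probe set, so a difference of 1 is a 2-fold change. Signals of different probe sets cannot be ranked against each other, and each gene is therefore set against the 5222 negative-control probe sets, whose median averaged 4.49 and whose 95th percentile averaged 8.36 over the 20 arrays. Arrays 2 and 4 of the PM2.5 with metformin group stood apart by background, with negative-control medians of 4.79 and 4.69, while the other arrays had 4.34 to 4.59. Array 5 of that group had the lowest mean correlation with the other arrays of its group among the 20. It was 0.988, against 0.989 and 0.991 for arrays 2 and 4. Member calls that rest on arrays 2 and 4 are given with and without them, and array 5 stays in those fits. The summed signals of the 8 hepatocyte markers were 21.16 to 21.27 with PM2.5 and metformin, 21.19 to 21.30 with PM2.5, 21.17 to 21.28 with metformin, and 21.20 to 21.22 in filtered air. These markers are bright, Alb having a mean of 18.9 where the highest deposited value was 19.03, so small differences may be compressed in them. Of the 8, only Trf was called with both exposures against filtered air, at 0.26 ± 0.10 (SE; adjusted p = 0.0439, limma; 0.23 with adjusted p = 0.145 without mice 2 and 4). Markers of kidney, fat and B cells lay below the negative-control median, as did the small intestine markers Sis, Lct and Alpi, but not Fabp2 and Vil1 of that list. The small intestine sums were 15.14 to 15.66 with PM2.5 and metformin, 15.16 to 15.88 with PM2.5, 15.17 to 15.86 with metformin and 15.47 to 16.22 in filtered air. Fabp2 fell with both exposures against filtered air (-0.46, adjusted p = 0.0468, limma; -0.40 with adjusted p = 0.156 without mice 2 and 4).

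Of the 31 genes, 20 had a mean signal above the 95th percentile of the negative controls. They were all 10 Ugt genes together with Sult2a8, Sult1a1, Sult1d1, Sult1e1, Sult2a2, Sult1b1, Sult2a1, Sult2a7, Sult3a1 and Sult3a2. A further 4 lay between the median and the 95th percentile: Sult1c2, Sult2a5, Sult2a3 and Sult2a4. The other 7, Sult2a6, Sult2b1, Sult6b1, Sult5a1, Sult1c1, Sult4a1 and Sult6b2, had means of 2.43 to 3.46, below the negative-control median, and were left out of the tests by the filter on dim genes. The 9 genes of the Ugt1a cluster, which share their last exons and include the bilirubin-conjugating Ugt1a1, were not analysed here.

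**Figure D1:**
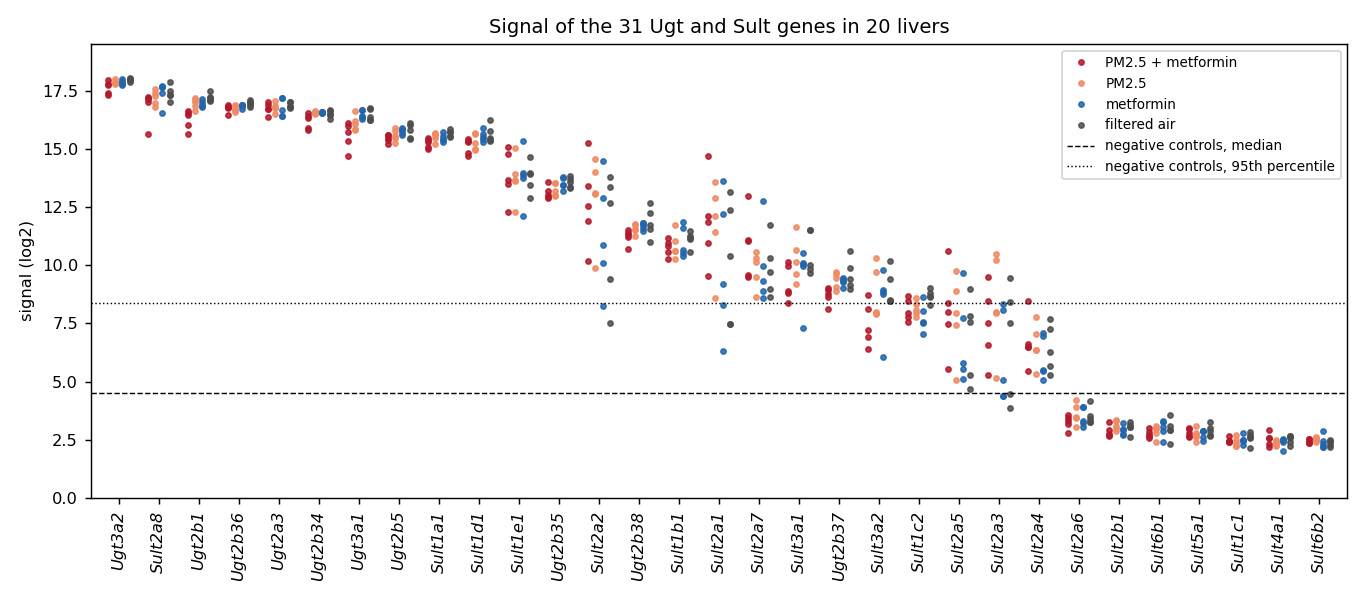
Log2 signal of the 31 Ugt and Sult genes in each of the 20 livers, with points coloured by group (PM2.5 with metformin, PM2.5, metformin, filtered air) and genes ordered by their mean. The dashed and dotted lines are the mean negative-control median (4.49) and 95th percentile (8.36); the 7 genes at the right lie below the dashed line, and Sult2a1 and Sult2a2 spread over several log2 units within each group. Positions of different genes along the vertical axis are not comparable as amounts of RNA.

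The largest group of changes was seen with PM2.5 and metformin together. Against filtered air, 8 of the 24 tested genes fell and 0 rose at an adjusted p under 0.05 (limma, 4 group means, Benjamini-Hochberg adjustment over 11703 genes). In the same comparison 35.4% of all tested genes were called, 16.4% lower and 18.9% higher. The count became 3 (Ugt2b1, Ugt3a1 and Sult1a1) without mice 2 and 4 of the combined group, where 21.9% of all tested genes were called, and 1 (Ugt2b1) with the negative-control median as a covariate, where 9.08% were. The 8 were Ugt2b1, Ugt3a1, Ugt2b37, Ugt2b38, Ugt3a2, Ugt2b35, Sult1a1 and Sult1d1. The median difference of the 24 genes was -0.34 on the log2 scale, with 17 of 24 below 0, against a median of 0.01 and 48.8% below 0 over all tested genes. At an unadjusted p under 0.05 there were 12 of the 24, while 44.4% of all tested genes passed that level.

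Among the Ugt genes, 6 of 10 fell, and the differences of all 10 lay below 0, from -0.96 to -0.14 with a median of -0.39. Ugt2b1, a glucuronosyltransferase of the family that handles steroids and drugs, fell most clearly. Its log2 signal was 16.62, 16, 16.46, 15.62 and 16.54 in the 5 mice with PM2.5 and metformin and 17.48, 17.23, 17.17, 17.10 and 17.05 in filtered air. It was 17.09, 16.83, 17.20, 16.997 and 16.62 with PM2.5 and 16.85, 16.77, 17, 17.14 and 16.88 with metformin. The 5 mice with PM2.5 and metformin lay below every mouse of the other 3 groups, mouse 1 by a margin lost in rounding against PM2.5 mouse 5. Against filtered air Ugt2b1 fell by 0.96 ± 0.17 (SE; adjusted p = 0.000254, limma), which is 1.95-fold. It was also lower than with PM2.5, by a difference of -0.70 ± 0.17 (adjusted p = 0.011), and lower than with metformin, by -0.68 ± 0.17 (adjusted p = 0.00993). Without mice 2 and 4 of the combined group the difference from filtered air was -0.67 (adjusted p = 0.00412), while those from PM2.5 and metformin were -0.41 and -0.39 (adjusted p = 0.17 and 0.129).

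Ugt3a1 belongs to a small family whose human member is known to use another sugar donor, UDP-N-acetylglucosamine. Its signals were 15.74, 14.68, 15.98, 15.32 and 16.11 with PM2.5 and metformin, against 16.71, 16.37, 16.77, 16.22 and 16.25 in filtered air. PM2.5 livers had 16.61, 16.05, 16.18, 15.83 and 15.80, and metformin livers had 16.27, 16.66, 16.37, 16.65 and 16.42. The combined group did not overlap filtered air or metformin, and its mice 2 and 4 were the lowest of the 20. Ugt3a1 fell by 0.90 ± 0.22 against filtered air (adjusted p = 0.00304, limma) and by 0.91 ± 0.22 against metformin (adjusted p = 0.00797). Without mice 2 and 4 these differences were -0.52 (adjusted p = 0.0484) and -0.53 (adjusted p = 0.0982). Its neighbour in the family, Ugt3a2, averaged 17.63 ± 0.26 with PM2.5 and metformin and 17.97 ± 0.05 in filtered air (SD, n = 5 each), a fall of 0.33 ± 0.12 (SE; adjusted p = 0.0364), which was -0.15 (adjusted p = 0.379) without mice 2 and 4 and did not pass in 6 of 10 fits that each left out 1 mouse of these groups.

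Ugt2b37 and Ugt2b38, whose start regions are the close copies shown above, fell by 0.91 ± 0.25 (adjusted p = 0.00707) and 0.62 ± 0.22 (adjusted p = 0.0338) with PM2.5 and metformin against filtered air. For Ugt2b37 the signals were 9.03, 8.09, 8.94, 8.64 and 8.77 in the combined group, against 9.86, 10.63, 9.40, 9.16 and 8.98 in filtered air. Those of Ugt2b38 were 11.49, 11.28, 11.38, 11.19 and 10.69, against 12.23, 12.65, 11.73, 11.53 and 11.003 in filtered air. Both groups overlapped for each gene, and filtered-air mice 1 and 2 were the highest of the 20 for both. Without mice 2 and 4 the differences were -0.69 (adjusted p = 0.0775) and -0.64 (adjusted p = 0.0914). Ugt2b37 passed in all 10 fits that each left out 1 mouse of these groups, and Ugt2b38 failed in 4, those without filtered-air mouse 1 or 2 or mouse 4 or 5 of the combined group. How far the probes of these genes also read each other's RNA was not tested.

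Ugt2b35 fell by 0.44 ± 0.17 (adjusted p = 0.0408), with means of 13.11 ± 0.29 in the combined group and 13.55 ± 0.21 in filtered air (SD, n = 5 each). It did not pass without mice 2 and 4 of the combined group (-0.39, adjusted p = 0.157), nor in 7 of 10 fits that each left out 1 mouse, where the adjusted p reached 0.108. The other 4 Ugt genes did not pass. Ugt2b34 had a difference of -0.31 (95% interval -0.59 to -0.03, adjusted p = 0.0793), Ugt2b5 of -0.31 (-0.62 to 0.00), Ugt2b36 of -0.22 (-0.46 to 0.01), and Ugt2a3, whose human counterpart conjugates bile acids, of -0.14 (-0.49 to 0.20). Ugt2b36 was among the least variable of all tested genes, with a within-group SD of 0.13 that ranked 11564 of 11703.

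**Figure D2:**
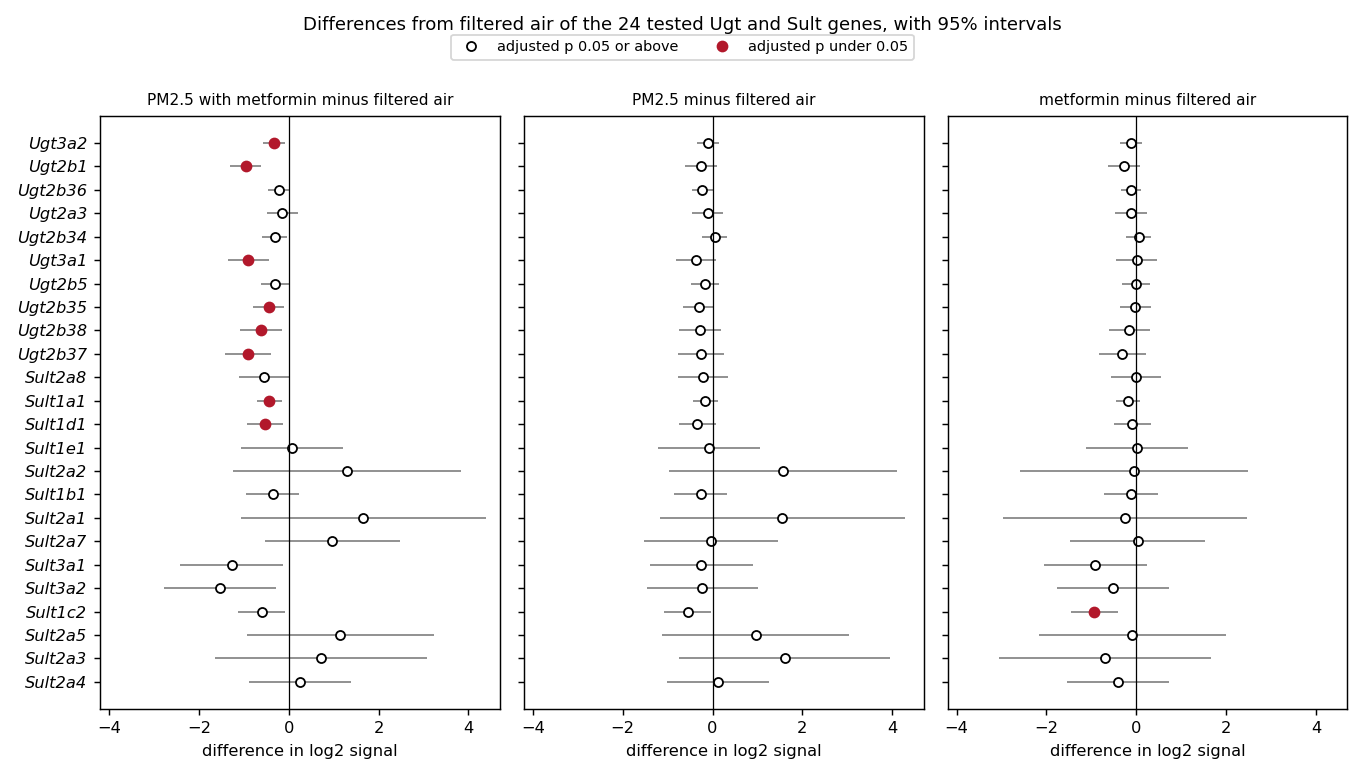
Difference in log2 signal from filtered air for the 24 tested genes with PM2.5 and metformin (left), PM2.5 (middle) and metformin (right); points are limma estimates, bars are 95% intervals, and filled points have an adjusted p under 0.05. The 8 filled points at the left all lie below 0, the middle panel has none and the right panel has 1, Sult1c2; Sult2a1, Sult2a2, Sult2a3 and Sult2a5 have the widest intervals.

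Of the 14 tested Sult genes, 2 fell with PM2.5 and metformin. Sult1a1, the main phenol sulfotransferase, had 15.28, 15.39, 15.44, 15.08 and 14.99 in the combined group, 15.59, 15.20, 15.67, 15.62 and 15.46 with PM2.5, 15.42, 15.39, 15.30, 15.53 and 15.73 with metformin and 15.73, 15.85, 15.54, 15.49 and 15.72 in filtered air. All 5 mice of the combined group lay below all 5 in filtered air, and the other 2 groups overlapped both. The fall against filtered air was 0.43 ± 0.13 (adjusted p = 0.0136, limma), or 1.35-fold, and was -0.43 (adjusted p = 0.0467) without mice 2 and 4. Sult1d1, which in mouse sulfates dopamine and related amines, averaged 15.10 ± 0.33 in the combined group and 15.63 ± 0.37 in filtered air (SD, n = 5 each), a fall of 0.53 ± 0.20 (adjusted p = 0.0417), which was -0.47 (adjusted p = 0.137) without those mice and did not pass in 4 of 10 fits that each left out 1 mouse: filtered-air mouse 1 or 5, or mouse 2 or 5 of the combined group. Sult1b1, which acts on phenols and thyroid hormones, had a difference of -0.35 (95% interval -0.95 to 0.24).

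Sult3a1, an amine sulfotransferase, and Sult3a2 had the most negative differences of the 24 genes with PM2.5 and metformin against filtered air, but neither passed. Sult3a2 had 7.20, 6.41, 8.72, 6.93 and 8.10 with PM2.5 and metformin and 8.51, 8.45, 10.18, 8.47 and 9.40 in filtered air. Mice 1, 2, 4 and 5 of the combined group lay below every filtered-air mouse, and the difference was -1.53 ± 0.60 (adjusted p = 0.0511, limma). That of Sult3a1 was -1.27 ± 0.55 (adjusted p = 0.0775). Without mice 2 and 4 they were -1.0 and -0.85 (adjusted p = 0.316 and 0.368).

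Some markers of other cell types were called with both exposures against filtered air. The shares were 42.9% of tested Kupffer cell and macrophage, 16.7% of endothelial, 50% of stellate and 33.3% of bile duct markers. Of all tested genes, 35.4% were called. The summed Kupffer cell and macrophage markers were 10.97 to 14.70 with PM2.5 and metformin, 13.95 to 14.69 with PM2.5, 13.02 to 13.50 with metformin, and 13.50 to 14.58 in filtered air, and none of the 7 markers measured lay below the negative-control median. Of these 7, Vsig4, Clec4f and Adgre1 fell against filtered air (-2.09, -1.48 and -1.28; adjusted p = 0.0019, 0.00733 and 0.00262, limma), while Marco had a difference of 0.56 (adjusted p = 0.125). The 3 differences were -1.29, -1.01 and -0.95 (adjusted p = 0.0283, 0.0832 and 0.0423) when mice 2 and 4 were left out. Mouse 5 of the combined group did not share the fall of Vsig4 and Clec4f. Its Vsig4 was 13.28, where the others of its group had 8.75 to 11.00 and filtered air 12.49 to 13.49. Its Clec4f was 10.93, where the others had 7.47 to 8.90 and filtered air 10.03 to 11.08. Of 6 endothelial markers 1 fell, Clec4g, by 1.69 ± 0.28 (adjusted p = 0.000145; -1.31 with adjusted p = 0.00337 without mice 2 and 4), and 2 of the 6 lay above 0. The endothelial sums were 12.17 to 13.46 with PM2.5 and metformin, 13.30 to 13.76 with PM2.5, 12.94 to 13.43 with metformin and 13.27 to 13.74 in filtered air. Of 6 tested stellate markers, 2 fell, Lrat and Dcn (-1.64 and -0.43; adjusted p = 0.00285 and 0.0205), and 1 rose, Pdgfrb (0.62, adjusted p = 0.00775). With mice 2 and 4 left out, these were -1.52, -0.32 and 0.57 (adjusted p = 0.0267, 0.141 and 0.0461), and Des, another stellate marker, lay below the negative-control median. The stellate sums were 15.58 to 16.12 with PM2.5 and metformin, 15.95 to 16.52 with PM2.5, 15.91 to 16.45 with metformin and 16.21 to 16.54 in filtered air. Of 3 tested bile duct markers 1 fell, Krt7, a keratin, by 0.84 ± 0.16 (adjusted p = 0.000351; -0.75 with adjusted p = 0.00674 in the absence of those mice). Krt7 also fell with metformin against filtered air (-0.67, adjusted p = 0.0206, limma), as did the endothelial marker Stab2 (-0.75, adjusted p = 0.036). With PM2.5 against filtered air, the bile duct marker Sox9 and the endothelial marker Kdr rose (0.87 and 0.54; adjusted p = 0.0418 and 0.0454, limma). The calls of Stab2, Sox9 and Kdr were lost in 7, 7 and 9 of 10 fits that each left out 1 mouse. With the negative-control median as a covariate, Clec4g and Krt7 kept their calls with both exposures (adjusted p = 0.0376 and 0.0422). Vsig4, Clec4f, Adgre1, Lrat, Dcn and Pdgfrb lost theirs (adjusted p = 0.275, 0.532, 0.211, 0.191, 0.45 and 0.168). The part of these markers in the falls of the Ugt and Sult genes was not tested. In whole liver, fewer cells of a type and less RNA per cell cannot be told apart.

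**Figure D3:**
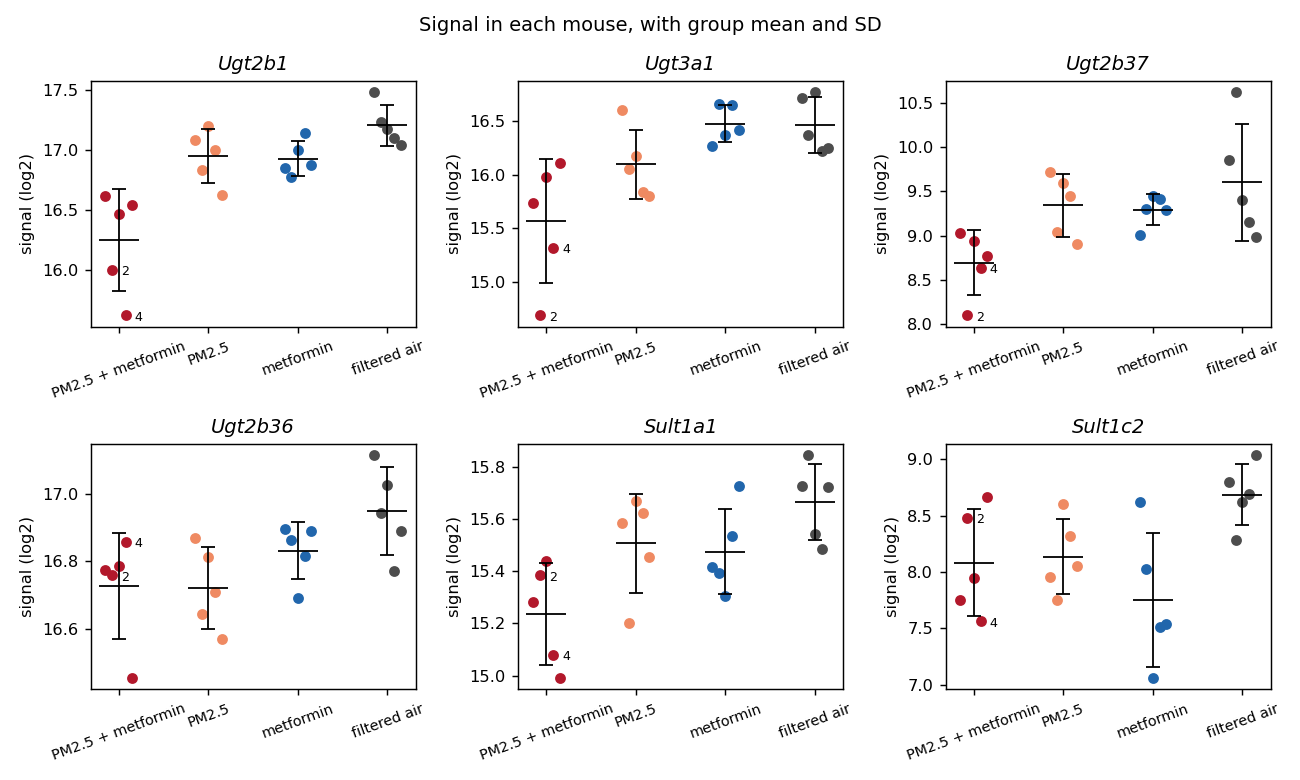
Log2 signal of 6 genes in each mouse, by group (PM2.5 with metformin, PM2.5, metformin, filtered air), with the group mean and SD (n = 5 each). Numbers mark mice 2 and 4 of the combined group, which hold the lowest values for Ugt2b1 and Ugt3a1; each panel has its own vertical scale, which does not start at 0.

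PM2.5 without metformin changed none of the 24 genes at an adjusted p under 0.05 (limma), while 5.28% of all tested genes were called in that comparison. At an unadjusted p under 0.05 there was 1, Sult1c2, against 22.7% of all tested genes. The median difference from filtered air was -0.19, with 18 of 24 genes below 0, against a median of 0.02 and 47.4% below 0 over all tested genes. For Ugt2b1 the difference was -0.26 (95% interval -0.61 to 0.09) and for Ugt3a1 -0.37 (-0.82 to 0.08). Set directly against PM2.5, the combined group differed by -0.53 ± 0.22 for Ugt3a1 (adjusted p = 0.117), which did not pass. For Sult2a1 the difference of PM2.5 from filtered air was 1.56 (95% interval -1.17 to 4.28), an interval that holds large changes in both directions.

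Metformin without PM2.5 lowered 1 of the 24 genes, Sult1c2, a sulfotransferase of phenols, while 3.2% of all tested genes were called, 1.91% lower. Sult1c2 had 8.62, 8.02, 7.06, 7.51 and 7.54 with metformin and 8.80, 8.28, 8.62, 8.69 and 9.04 in filtered air. In the combined group it had 7.75, 8.48, 7.95, 7.56 and 8.67, and with PM2.5 7.95, 7.75, 8.60, 8.32 and 8.05. Metformin mice 2 to 5 lay below every filtered-air mouse, and metformin mouse 1 lay among them. The fall was 0.94 ± 0.25 (adjusted p = 0.0445, limma), or 1.91-fold, and it passed without metformin mouse 1 (a difference of -1.15) but in none of the other 9 fits that each left out 1 mouse of these groups. The gene's mean of 8.16 is under the negative-control 95th percentile, a range in which background can shrink differences. The difference from filtered air was -0.55 ± 0.25 with PM2.5 (adjusted p = 0.199) and -0.60 ± 0.25 with both (adjusted p = 0.0677). Over the 24 genes the median difference with metformin was -0.12, with 20 below 0, against 0.00 and 49.6% over all tested genes.

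With both exposures against PM2.5, 1 of the 24 genes was called, Ugt2b1, while 11.9% of all tested genes were. Against metformin 2 were called, Ugt2b1 and Ugt3a1, while 16.5% of all tested genes were. The F test over the 4 groups called 4, Ugt2b1, Ugt3a1, Ugt2b37 and Sult1c2 (adjusted p = 0.00152, 0.00743, 0.0359 and 0.0384), while 32.6% of all tested genes were called. These comparisons share arrays with those against filtered air.

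The interaction asks whether the metformin difference under PM2.5 was unlike the metformin difference without PM2.5. It was called for 0 of the 24 genes (limma) and for 0.188% of all tested genes. At an unadjusted p under 0.05 there were 2 of the 24, against 13.1% of all tested genes. For Sult1c2 the interaction was 0.88 (95% interval 0.14 to 1.63, adjusted p = 0.287) and for Ugt2b34 -0.42 (-0.81 to -0.02, adjusted p = 0.351). For Ugt2b1 it was -0.42 (-0.92 to 0.08, adjusted p = 0.478), so the fall in the combined group was not shown to differ from the sum of the single differences.

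The tested Sult2a genes, which sulfate bile acids and steroid hormones, ranged more widely from lowest to highest mouse within each group than their group means differed. Sult2a1 had the largest within-group SD of all 11703 tested genes, 2.41, and Sult2a2 the next, 2.25. Sult2a3 and Sult2a5 ranked 4 and 5, with 2.08 and 1.83. The lowest Sult2a3 value, 3.84 in filtered-air mouse 1, lay below the negative-control median of its array, 4.39. Those of metformin mice 3 and 4, 4.39 and 4.38, also lay below theirs, 4.54 and 4.52, so background can limit this spread. Of all tested genes, 12 (0.103%) had a within-group SD over 1.5, against a median SD of 0.29, and 4 of the 12 were these Sult2a genes.

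Sult2a1 had 9.54, 14.68, 11.85, 10.94 and 12.09 with PM2.5 and metformin, 13.59, 12.87, 8.60, 12.12 and 11.41 with PM2.5, 13.61, 12.19, 6.30, 8.29 and 9.18 with metformin and 7.45, 7.46, 10.38, 13.15 and 12.36 in filtered air. High and low mice stood in each of the 4 groups, and the lowest liver was metformin mouse 3 and the highest mouse 2 of the combined group. The values of metformin mice 3 and 4, 6.30 and 8.29, lay below the 95th percentile of the negative controls on their arrays, 8.62 and 8.46. Those of filtered-air mice 1 and 2, 7.45 and 7.46, also lay below theirs, 8.09 and 8.20, so no fold range is given. For Sult2a2 the values were 10.19, 15.25, 12.54, 11.88 and 13.39 in the combined group, 14.55, 13.98, 9.87, 13.11 and 13.06 with PM2.5, 14.47, 12.87, 8.22, 10.09 and 10.85 with metformin and 7.54, 9.40, 12.68, 13.77 and 13.36 in filtered air. In each group the mouse with the highest Sult2a2 and the mouse with the lowest were the same as for Sult2a1. The lowest of all, filtered-air mouse 1 at 7.54, also lay below the 95th percentile on its array, 8.09. Metformin mouse 3, at 8.22 against 8.62, did too. Against filtered air the differences with PM2.5 and metformin were 1.66 (95% interval -1.06 to 4.38) for Sult2a1 and 1.30 (-1.24 to 3.84) for Sult2a2, both smaller than the spread within groups.

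**Figure D4:**
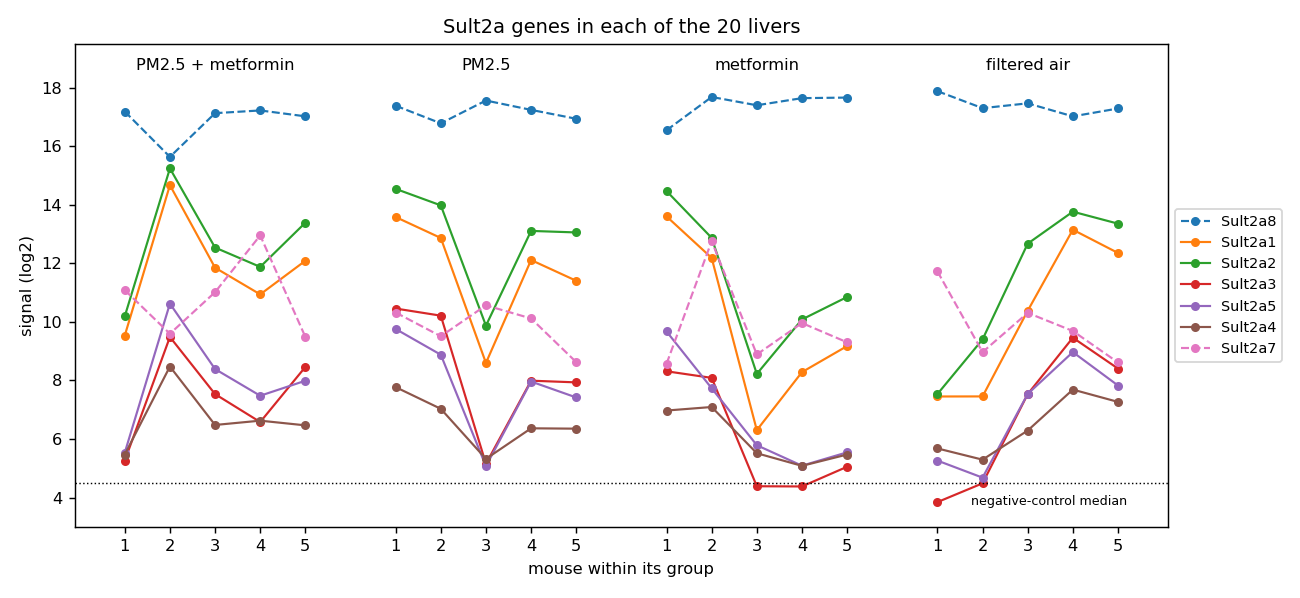
Log2 signal of 7 Sult2a genes in each of the 20 livers, mice 1 to 5 in each group from left to right (PM2.5 with metformin, PM2.5, metformin, filtered air). Mice have no order, and lines only join the points of 1 gene; the solid lines of Sult2a1, Sult2a2, Sult2a3, Sult2a4 and Sult2a5 move together, while the dashed lines of Sult2a8 and Sult2a7 do not follow them. The dotted line is the mean negative-control median (4.49).

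To follow this spread apart from the exposures, each gene's deviation from its group mean was correlated over the 20 mice, with 100000 permutations within groups and adjustment over 9 relations. Sult2a1 and Sult2a2 correlated at r = 0.97 (rho 0.98; permutation p = 1e-05, the smallest these permutations can give; adjusted p = 2.25e-05), and r was 0.96 without the 2 mice farthest from the median. Within single groups r lay between 0.94 and 1.00. Sult2a3, Sult2a5 and Sult2a4, which are named here after their values were seen, correlated with Sult2a1 at r = 0.95, 0.94 and 0.92 (rho 0.95, 0.93 and 0.89; adjusted permutation p = 2.25e-05, 2.25e-05 and 3.6e-05), and at 0.97, 0.96 and 0.96 without the 2 farthest mice. Near-identical transcripts can bind each other's probes, and how much of the shared movement this gives was not tested. How alike the transcripts of these genes are was not checked. The mean signals of Sult2a3, Sult2a5 and Sult2a4 lay under the negative-control 95th percentile, a range in which background can shrink differences.

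Other sulfotransferases behaved differently. Sult2a8, a bile acid sulfotransferase of mouse liver, ran opposite to Sult2a1 at r = -0.61 (rho -0.58; permutation p = 0.0059; adjusted p = 0.00885; r = -0.59 without the 2 farthest mice). Its signals were 17.19, 15.64, 17.14, 17.23 and 17.03 with PM2.5 and metformin, 17.39, 16.79, 17.57, 17.25 and 16.94 with PM2.5, 16.55, 17.69, 17.41, 17.65 and 17.67 with metformin and 17.89, 17.31, 17.47, 17.03 and 17.30 in filtered air. Mouse 2 of the combined group, metformin mouse 1 and filtered-air mouse 4, the highest of their groups for Sult2a1, were the lowest of theirs for Sult2a8. PM2.5 mouse 1, the highest of its group for Sult2a1, was not, at 17.39. Against filtered air the difference of Sult2a8 was -0.55 with both exposures (95% interval -1.12 to 0.01).

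Sult2a7 had a within-group SD of 1.32 but did not measurably follow Sult2a1 (r = -0.15, rho -0.26, permutation p = 0.59, adjusted p = 0.664; r = -0.16 without the 2 farthest mice). Sult1e1, the estrogen sulfotransferase, correlated with Sult2a1 at r = 0.60 (rho 0.49; permutation p = 0.00963 for r and 0.0439 for rho; adjusted p = 0.0124 and 0.0564), and at 0.60 without the 2 farthest mice. Its means of 13.85 ± 1.12 with PM2.5 and metformin, 13.70 ± 0.97 with PM2.5, 13.79 ± 1.14 with metformin and 13.78 ± 0.65 in filtered air (SD, n = 5 each) were close together. Sult3a1 and Sult3a2 moved with each other (r = 0.95, rho 0.91, permutation p = 1e-05, adjusted p = 2.25e-05; r = 0.92 without the 2 farthest mice) but not measurably with Sult2a1 (r = -0.10 for Sult3a1, rho -0.05, permutation p = 0.73, adjusted p = 0.73; r = 0.24 without the 2 farthest mice).

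The spread of Sult2a1 was also set against 25 genes known to differ between male and female mouse liver, with adjustment over these 25 relations. Of these, 3 had an adjusted permutation p under 0.05 for both r and rho, and all 3 are known as male-biased. Mup20, a major urinary protein, ran opposite to Sult2a1 at r = -0.76 (rho -0.75; permutation p = 0.00022; adjusted p = 0.00275; r = -0.78 without the 2 farthest mice). Mup3, of the same family, did so at r = -0.76 (rho -0.80; permutation p = 6e-05; adjusted p = 0.0015; r = -0.67 without them), and C6, a complement component, at r = -0.73 (rho -0.66; permutation p = 0.00163; adjusted p = 0.0136; r = -0.65 without them). Without mice 2 and 4 of the combined group the 3 values were -0.75, -0.78 and -0.70. None of the female-biased genes passed, the nearest by p being Cux2, a repressor of male-biased genes, at r = 0.55 (rho 0.49; permutation p = 0.0172; adjusted p = 0.0851; r = 0.45 without the 2 farthest mice). Between groups, 3 of the 25 genes were called in a comparison. With both exposures against filtered air, 0 of 11 male-biased and 1 of 14 female-biased genes were called, where 35.4% of all tested genes were. Against metformin, 2 of 11 and 0 of 14 were, where 16.5% of all tested genes were. Cyp17a1, a steroid hydroxylase gene of the female-biased list, fell with both exposures against filtered air by 0.63 ± 0.18 (adjusted p = 0.0109, limma; -0.57 with adjusted p = 0.0687 without mice 2 and 4). Cyp4a12a and Cyp4a12b, male-biased fatty acid hydroxylases, were lower with both exposures than with metformin, by -1.58 and -1.5 (adjusted p = 0.0384 and 0.0237), neither of which passed without mice 2 and 4 (adjusted p = 0.255 and 0.0697).

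**Figure D5:**
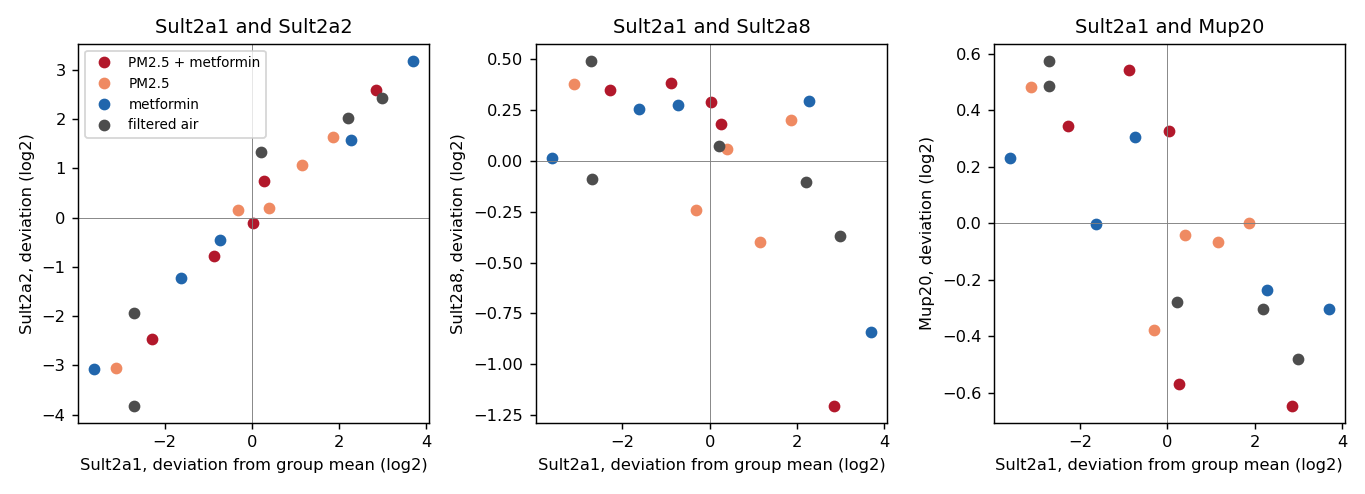
Deviation of each mouse from its group mean (log2) for Sult2a1 on the horizontal axis against Sult2a2 (left), Sult2a8 (middle) and Mup20 (right), with points coloured by group (n = 20 mice). The points rise together at the left (r = 0.97) and fall in the middle (r = -0.61) and at the right (r = -0.76), with mice of each group at both ends.

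The genes around the conjugating enzymes were taken from lists of known roles. Of 8 tested genes that supply UDP-glucuronic acid or related nucleotide sugars, 2 rose and 2 fell with PM2.5 and metformin against filtered air, or 50% called where 35.4% of all tested genes were. Ugp2, which makes UDP-glucose, had 16.39, 15.97, 16.03, 15.44 and 16.23 in the combined group and 17.03, 16.97, 16.77, 16.84 and 17.04 in filtered air, without overlap. It fell by 0.92 ± 0.15 (adjusted p = 0.000126, limma), while Ugdh, which oxidises UDP-glucose to UDP-glucuronic acid, had a difference of 0.03 (adjusted p = 0.892). Slc35d1, which carries UDP-glucuronic acid into the endoplasmic reticulum, rose by 0.99 ± 0.21 with both (adjusted p = 0.00106) and by 0.92 ± 0.21 with metformin (adjusted p = 0.0178). Pgm1, a phosphoglucomutase, rose by 0.66 ± 0.13 (adjusted p = 0.000631), and Slc35d2, a nucleotide sugar carrier, fell by 0.88 ± 0.16 (adjusted p = 0.000303) and by 0.64 ± 0.16 with PM2.5 (adjusted p = 0.0231). Of 8 tested genes for making, moving or clearing the sulfate donor, 0 were called against filtered air in any of the 3 groups (limma), with 2 at an unadjusted p under 0.05 for both exposures, 1 for PM2.5 and 1 for metformin, where 44.4%, 22.7% and 18.7% of all tested genes passed that level. Papss1 and Papss2, which make PAPS, had differences of -0.38 and -0.34 with both exposures (adjusted p = 0.0827 and 0.228), and Bpnt1, which clears its by-product, of -0.40 (adjusted p = 0.126). Bpnt2, a nucleotide phosphatase of the Golgi, and Slc35a3, a carrier of UDP-N-acetylglucosamine, were lower with both exposures than with metformin, by -0.71 for each gene (adjusted p = 0.0113 and 0.0169), and Slc35a3 was lower than with PM2.5, by -0.64 (adjusted p = 0.0378). None of these 3 differences passed without mice 2 and 4 (adjusted p = 0.122, 0.23 and 0.481).

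Of the xenobiotic receptors that regulate Ugt and Sult genes, Nr1i3 and Nr1i2 rose in all 3 groups, while Ahr, the aryl hydrocarbon receptor, was not called in any (differences of 0.49 with both exposures, -0.19 with PM2.5 and 0.25 with metformin; adjusted p = 0.22, 0.759 and 0.702). Nr1i3, the constitutive androstane receptor CAR, had 13.76, 13.71, 13.86, 14.15 and 13.27 with PM2.5 and metformin, 12.77, 13.38, 12.66, 12.39 and 12.998 with PM2.5, 13.13, 13.77, 13.55, 12.97 and 13.46 with metformin and 11.98, 11.85, 12.22, 11.70 and 11.55 in filtered air. Filtered air lay below the other 3 groups without overlap. The rises were 1.89 ± 0.20, 0.98 ± 0.20 and 1.51 ± 0.20 (adjusted p = 3.24e-06, 0.00647 and 0.000134, limma), in the same order of groups. Nr1i2, the pregnane X receptor PXR, had 10.56, 10.79, 10.83, 10.60 and 10.64, 11.08, 11.28, 10.79, 10.61 and 10.95, 10.75, 10.85, 10.94, 10.54 and 10.48 and, in filtered air, 10.03, 9.92, 10.25, 9.91 and 9.76. It rose by 0.71 ± 0.14, 0.97 ± 0.14 and 0.74 ± 0.14 (adjusted p = 0.000544, 0.000778 and 0.0048).

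For Nr1i2 the interaction passed, at -1.0 ± 0.20 (adjusted p = 0.0353), so that its level with both exposures was below the sum of the single rises. It did not pass in 9 of 20 fits that each left out 1 mouse, where the adjusted p ran between 0.0154 and 0.0911, nor without mice 2 and 4 of the combined group (-1.0, adjusted p = 0.069). Of the 16 tested receptors and factors, 7 rose and 2 fell with both exposures, or 56.3% called where 35.4% of all tested genes were. Ppara, the fatty acid sensing receptor, rose by 0.69 ± 0.19 (adjusted p = 0.00817), and Rxra, the partner of these receptors, by 0.85 ± 0.24 (adjusted p = 0.00974), which was 0.78 (adjusted p = 0.0631) without mice 2 and 4. Hnf4a, Foxa2 and Stat5b rose by 0.59, 0.68 and 0.84 (adjusted p = 0.00348, 0.0425 and 0.000107). Foxa1, another forkhead factor, was called against PM2.5 alone, at 0.85 ± 0.24 (adjusted p = 0.0256), which was 1.01 (adjusted p = 0.0522) without mice 2 and 4. Nfe2l2, the oxidative stress factor NRF2, fell by 0.78 ± 0.27 with both exposures (adjusted p = 0.0285; -0.46 with adjusted p = 0.273 without mice 2 and 4) and by 0.97 ± 0.27 with PM2.5 (adjusted p = 0.0388, lost in 7 of 10 fits that each left out 1 mouse), and Nr0b2, the repressor SHP, fell by 1.62 ± 0.51 (adjusted p = 0.0162). Nr1h4, the bile acid receptor FXR, had a difference of -0.05 (adjusted p = 0.895).

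Of 10 tested genes known as targets of these receptors, 0 rose and 1 fell with PM2.5 and metformin against filtered air, and 2 passed an unadjusted p under 0.05, where 44.4% of all tested genes did. The 1 was Cyp2c55, an epoxygenase gene induced through CAR and PXR, which fell by 1.5 ± 0.37 (adjusted p = 0.00325). Cyp2b10, the usual read-out of CAR, had a difference of 0.24 (adjusted p = 0.406), and Cyp3a11, that of PXR, of 0.00 (adjusted p = 0.98). Cyp7a1, the rate-limiting enzyme of bile acid synthesis, was higher with both exposures than with PM2.5, by 1.61 ± 0.38 (adjusted p = 0.00934), which was 1.68 (adjusted p = 0.053) without mice 2 and 4.

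Of 13 tested transporters of conjugates, 4 rose and 1 fell with both exposures, or 38.5% called where 35.4% of all tested genes were. Abcc3, which carries glucuronides out of hepatocytes into blood, had 15.20, 15.26, 15.60, 15.29 and 15.20 in the combined group, 14.25, 14.96, 14.77, 14.64 and 15.26 with PM2.5, 14.41, 14.54, 14.54, 14.50 and 14.49 with metformin and 13.89, 13.80, 13.88, 14.30 and 13.41 in filtered air. The mice of the combined group lay above all filtered-air and metformin mice and overlapped the PM2.5 group through its mouse 5. Abcc3 rose by 1.45 ± 0.17 with both (adjusted p = 8.96e-06, limma), by 0.92 ± 0.17 with PM2.5 (adjusted p = 0.00351) and by 0.64 ± 0.17 with metformin (adjusted p = 0.0388). The call with metformin was lost in 9 of 10 fits that each left out 1 mouse, with adjusted p up to 0.103, and those with both exposures and with PM2.5 in 0 of 10. Abcc2, the exporter of glucuronides into bile, rose by 0.47 ± 0.12 (adjusted p = 0.0045), the uptake carriers Slco2b1 and Slc22a7 rose by 0.89 and 1.10 (adjusted p = 0.00284 and 0.0242), and Abcg2, which exports sulfates, fell by 0.72 ± 0.19 (adjusted p = 0.00521), which was -0.41 (adjusted p = 0.091) without mice 2 and 4. Abcc4, another exporter into blood, was called only between the combined group and metformin, at 1.11 ± 0.38 (adjusted p = 0.047), which was 1.23 (adjusted p = 0.054) without mice 2 and 4.

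Of 7 tested genes listed for removal of the conjugated group, 4 rose and 1 fell with both exposures, or 71.4% called where 35.4% of all tested genes were. Gusb, the lysosomal beta-glucuronidase, rose by 0.49 ± 0.19 (adjusted p = 0.0437). Arsb, a lysosomal sulfatase, and Sumf1, which activates sulfatases, rose by 0.58 and 0.59 (adjusted p = 0.00932 and 0.00209), while the sulfatase gene Arsg fell by 1.09 (adjusted p = 0.0216). Ces1d, which rose by 0.77 (adjusted p = 0.00776), is a carboxylesterase that splits esters and not a glucuronidase or sulfatase. Without mice 2 and 4 the counts against filtered air were 8 higher and 1 lower of the 16 receptors and factors, 4 and 0 of the 13 transporters, 2 and 2 of the 8 genes of nucleotide sugar supply, and 2 and 0 of the 7 genes of removal. The genes that lost their call there were Rxra, Nfe2l2, Abcg2, Slc22a7, Arsb, Arsg and Ces1d, the last 4 with adjusted p = 0.125, 0.0623, 0.31 and 0.109. These genes also lost it with the negative-control median as a covariate. With the covariate, Pgm1, Slc35d1, Abcc2, Slco2b1, Hnf4a, Nr0b2 and Cyp2c55 lost it as well (adjusted p = 0.09, 0.138, 0.137, 0.145, 0.0721, 0.131 and 0.0614, limma). Nr1i3, Nr1i2, Abcc3, Ugp2, Slc35d2, Gusb, Sumf1, Ppara, Foxa2 and Stat5b kept it. Slc35d1 and Abcc3 lost their calls with metformin (adjusted p = 0.083 and 0.122). Leaving out 1 mouse at a time, the calls of Gusb, Arsg, Slc22a7, Nfe2l2, Foxa2 and Nr0b2 with both exposures were lost in 5, 4, 2, 6, 6 and 2 of 10 fits, that of Slc35d2 with PM2.5 in 5 of 10, and that of Slc35d1 with metformin in 3 of 10.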

How the data were processed

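Liver RNA of 20 male ob/ob mice was measured on 1 expression array per mouse. The deposited values are log2 signal per probe set from Affymetrix Expression Console, per the submitters' processing notes; the program's version, the summary method and the normalization are not given in the sources used here. The deposited log2 values ran between 1.55 and 19.03. The array type named in the series text does not match the probe set identifiers, and genes were therefore taken from the platform annotation in which these identifiers occur: of 22206 probe sets other than controls, 19572 had 1 gene symbol, 0 several and 2634 none. The number of arrays limits the precision.

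For 55 genes read by more than 1 probe set, the brightest on average was kept. Genes with a mean at or below the 40th percentile of genes (log2 4.09) were left out, which left 11703. Differences come from limma 3.58.1 (R 4.3.3), fitted as 4 group means over all 20 arrays with eBayes (16 residual degrees of freedom), two-sided, first group minus second, with Benjamini-Hochberg adjustment over 11703 genes and a threshold of 0.05; the fit was tested on simulated data. The 4 groups gave 5 comparisons, an interaction and an F test. Within-group deviations were correlated with two-sided permutation tests. Start regions come from RefSeq (GRCm38.p6), aligned with Biopython 1.88.

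The genes named are all members called in a comparison or above the negative-control 95th percentile, the called genes of the lists of cofactors, removal, transporters, regulators, their targets and sex-biased genes, a few genes of these lists whether called or not, and the markers that were called against filtered air in the lists described. Slc35b2 and Sts, also in the rule, were not analysed here. The members, lists, naming rule and the arrays left out were chosen with earlier results of these data known. Lists are described by counts and not tested. A list of other sugar and sulfate transferases outside the naming rule had 1 of 6 tested genes called, Tpst1, higher, with both exposures against filtered air. The lists of 11 male-biased and 14 female-biased genes had 0 and 1, lower, and 35.4% of all tested genes were called in this comparison. With PM2.5 against filtered air, 1 of the 6 transferase genes was called, Chst15, higher (0.74, adjusted p = 0.0261, limma), where 5.28% of all tested genes were. Alternatives were the filter, normalization, probe set choice, array weights, eBayes options, the arrays in the fit, the negative-control median as a covariate, and leaving out mice.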

Additional observations from a re-analysis of the deposited data

Results flagged for a closer look

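Among 96 groups of 5 mice (24 genes in 4 groups), 5 held a mouse far from the other 4 by Dixon's criterion, and chance gives about 1 in 20. Sult2a8 was 15.64 in mouse 2 of the combined group, where the other 4 had 17.03 to 17.23, and 16.55 in metformin mouse 1, where the other 4 had 17.41 to 17.69. Metformin mouse 1 was also low for Sult3a1, at 7.32 against 9.97 to 10.54 in the other 4, and for Sult3a2, at 6.06 against 8.75 to 9.79. Ugt2b36 was 16.46 in mouse 5 of the combined group, where the other 4 had 16.76 to 16.86.

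The metformin difference of Nr1i2, the pregnane X receptor, differed between mice with and without PM2.5: the interaction was -1.0 ± 0.20 (SE; adjusted p = 0.0353, limma, n = 5 mice per group), as described above.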

How the results depend on the processing

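Values are counts of the 24 tested genes called (limma, adjusted p under 0.05). For the combined group against filtered air 8 became 3 without its mice 2 and 4 and 1 with the negative-control median as a covariate, and 4 to 9 without any single mouse (4 without filtered-air mouse 1, 5 without filtered-air mouse 2, 5 without mouse 4 of the combined group). Against PM2.5, 1 became 0 without mice 2 and 4, with the covariate and with the compared arrays alone, and 1 to 3 without single mice (2 without mouse 1 and 3 without mouse 5 of the combined group). Against metformin, 2 became 0 without mice 2 and 4, and 2 to 4 without single mice (4 without mouse 1 of the combined group). For metformin against filtered air 1 became 0 with no filter, with the compared arrays alone and with the covariate, and 0 to 1 without single mice. The F test's 4 became 1 without mice 2 and 4 and 1 with the covariate, and 2 to 6 without single mice. PM2.5 against filtered air and the interaction gave 0 to 0 without single mice. The cause of these changes was not tested. Of 12 called differences, 1, that of Ugt2b1 between the combined group and filtered air, passed in all settings run, 7 passed without any single mouse, and 0 reversed. Over all tested genes, the calls of PM2.5 against filtered air were 618, and 1374 with array weights and 943 without mice 2 and 4; those of the combined group were 4138, and 1063 with the covariate and 2568 without those mice. No paired analysis was possible because the labels number no replicates and tie no mice together across groups.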

Other observations

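Mouse 2 of the combined group and metformin mouse 1, the highest of their groups for Sult2a1, also had the lowest Elovl3, a male-biased fatty acid elongase gene, of the 20 livers. Their log2 signals were 8.33 and 7.90, where the others had 9.72 to 12.25. They had the lowest Mup3 as well, 16.04 and 16.53, against 16.86 to 17.87. PM2.5 mouse 1 and filtered-air mouse 4, also the highest of their groups for Sult2a1, had Elovl3 at 12.21 and 9.72. The first of these lay near the top of the 20 livers. Over the 20 livers the deviations of Elovl3 and Sult2a1 from their group means correlated at r = -0.59 (rho -0.54; permutation p = 0.0101; adjusted p = 0.0629 over 25 relations), and at -0.44 without the 2 farthest mice. Within single groups r ran between -0.91 and 0.42. These genes and mice were picked after their values were seen.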
